A study of Danio rerio with 6 samples.

Results

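The genes described here are those of the proteasome, the barrel-shaped protease that destroys ubiquitin-tagged proteins, in early zebrafish embryos. They are the rows of the deposited expression table whose symbol begins with psma, psmb, psmc, psmd, psme, psmf or psmg and a digit, in any letter case. That rule took 58 of 32571 rows, of which 57 are proteasome genes by name. The remaining row, psmc3ip, encodes a recombination factor of meiosis that carries the letters psmc because it binds the proteasome ATPase encoded by psmc3. Counts and medians of all proteasome genes below include this row. RNA was measured by sequencing of whole AB-strain embryos, pooled at 40 to 50 per extraction, in 6 groups with 1 deposited value per gene each. At 6 hours post fertilisation (hpf) there were embryos injected with miR-430 MO (an antisense morpholino against the microRNA family miR-430), with CNOT7-DN (used to inhibit CNOT7, an enzyme that shortens RNA tails) and with alpha-amanitin (which blocks RNA polymerase II). The references were control B at 6 hpf, which goes with amanitin, control embryos at 6 hpf, which go with the other injections, and control embryos at 2 hpf. The labels do not say whether control embryos were injected.

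The proteasome has a core particle built of alpha and beta rings, with the protein-cutting sites on the inner face of the beta rings. A regulatory particle caps the core: its base holds a ring of ATPases that unfold substrates, and its other subunits bind ubiquitin chains, remove them or hold the cap together. Separate activators can dock in place of that cap, an inhibitor can block the core, and assembly chaperones help to build the rings and the base. In egg and early embryo the particle is at first made from RNA and protein laid down by the mother, and embryonic transcription takes over later.

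Levels are FPKM, a read abundance that allows for the length of a gene and the depth of a library, so each is relative to all RNA of the pool. Ratios are log2 of (FPKM + 1) over (FPKM + 1), which understates the change of low genes. A gene is said to rise or fall only where the authors' deposited table gives a q under 0.05. The series states triplicates, but the table gives each group a single value in a comparison, so the spread of replicates cannot be given and their overlap cannot be seen. As the embryos were sequenced whole, fewer cells of a type and less RNA per cell cannot be told apart. Labels were checked on 7 genes that the embryo transcribes itself, whose summed FPKM was 3.7 in amanitin, 5255 in control B, 4622 in control 6 hpf and 2.42 in control 2 hpf. Summed FPKM of 7 egg RNAs was 264 with miR-430 MO, 614 with CNOT7-DN, 490.1 with amanitin, 272 in control B, 379 in control 6 hpf and 3464 in control 2 hpf. The amanitin sum held 286 FPKM of buc, against 80.5 in control B. Of the other egg RNAs, zar1 and dazl were higher in amanitin than in control B. There mos was level, and zar1l, btg4 and cldng were lower in amanitin. The part of egg RNA in the results below was not tested. The level of cnot7 was 12850.3 FPKM in CNOT7-DN and 7.4 in control 6 hpf. Summed FPKM over all rows ranged from 726913 in control 2 hpf to 1035854 in control 6 hpf, with amanitin at 747626.

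Most proteasome genes were well represented in every group. Of the 58 rows, 49 had an FPKM of at least 1 in at least 1 group, 47 had it in every group, and 43 stood at 5 or more throughout. Of the 47, 23 differed by less than 2-fold between their highest and lowest group, a count that was not made for all genes. Together the 58 rows held 0.282% of all FPKM with miR-430 MO, 0.261% with CNOT7-DN, 0.328% with amanitin, 0.301% in control B, 0.289% in control 6 hpf and 0.409% in control 2 hpf. The share was thus highest at 2 hpf. Their summed FPKM was 2846, 2654, 2451, 2899, 2994 and 2971 in the same order of groups, lowest in amanitin and between 2899 and 2994 in the control groups.

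**Figure D1:**
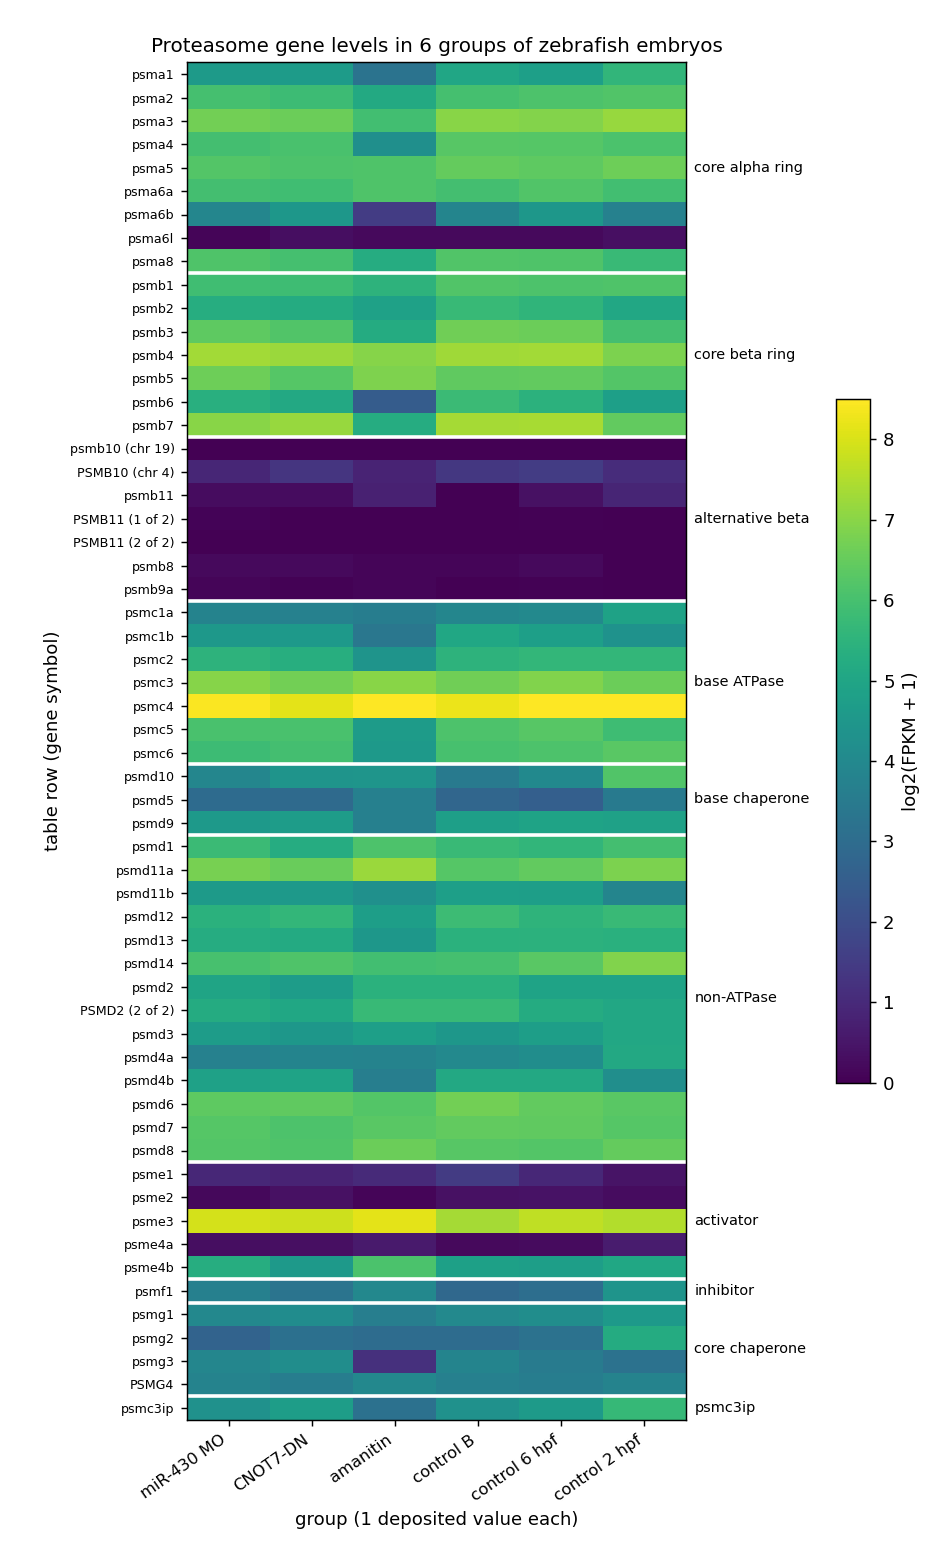
Heat map of log2 (FPKM + 1) for the 58 rows (down the page, grouped by sub-complex) in the 6 groups (across, 1 deposited value each). psmc4 is the brightest row in every group, the alternative beta rows are dark throughout, and psmb6, psma6b and psmg3 are darker in amanitin than in any other group.

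The genes were scattered over the genome. They lay on 21 chromosomes and 1 unplaced scaffold of the Zv9 assembly, with psmd7 on the scaffold. Chromosome 19 held 9 rows, 4 of which (psmb8, psmb9a, psmb10 and psmb11) share 1 locus at 7728373 to 7767121, the region of the major histocompatibility complex where the immune forms of the beta subunits are encoded. In all, 12 rows share their locus with another row, so their values may hold reads of an overlapping gene. Besides the 4 named above they are psma1, psmb5, psmc1a, psmc3, psmd1, psme2, psme3 and psmc3ip. psmd2 and PSMD2 (2 of 2), both on chromosome 15, are scaffold subunits of the base under the same name. PSMD2 (2 of 2) made up between 53% of their summed FPKM, in control 2 hpf, and 56.7%, in CNOT7-DN. That split hardly moved, and reads of near-identical copies can be divided arbitrarily, so the pair is uncertain as separate genes.

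Within the core particle the levels were of the same order in control embryos. The alpha ring gates the barrel. In control 6 hpf its lowest gene, the near-silent psma6l aside, was psma6b at 21.7 FPKM, and its highest was psma3 at 119.6 FPKM. psma8 stands for the position usually called psma7, a name that RefSeq lists among its synonyms. In the beta ring, which holds the catalytic sites, psmb6 was lowest at 42.7 FPKM and psmb7 highest at 165 FPKM in control 6 hpf. Counting both copies of psma6 as 1 position, and psma2 without its second copy, which the symbol rule does not take, the 14 ring positions spanned 6.09-fold in control 6 hpf.

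The ATPase ring was less even. psmc4, a base ATPase, had 347 FPKM with miR-430 MO, 282 with CNOT7-DN, 356 with amanitin, 305 in control B, 360.3 in control 6 hpf and 360.4 in control 2 hpf. It was the highest of all proteasome genes in each group. psmc1a, the lowest ATPase row in control 6 hpf, stood at 14.9 FPKM there. psme3, a nuclear activator, was also high, with 248 FPKM with miR-430 MO, 229 with CNOT7-DN, 281 with amanitin, 162 in control B, 206 in control 6 hpf and 181 in control 2 hpf. Its locus is shared with another row.

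The inducible forms were nearly absent. The 7 alternative beta rows, of which psmb8, psmb9a and PSMB10 name the immunoproteasome subunits that replace constitutive ones under interferon in mammals, summed to 1.36 FPKM with miR-430 MO, 1.93 with CNOT7-DN, 1.66 with amanitin, 1.68 in control B, 2.42 in control 6 hpf and 1.95 in control 2 hpf. The highest of them in each group was PSMB10 (ENSDARG00000043781, chromosome 4), at most 1.86 FPKM. A second psmb10 row (ENSDARG00000001656, chromosome 19), which the name list calls psmb13a, did not exceed 1.9e-05 FPKM. psmb11, which the list calls psmb12, reached 0.826 FPKM in control 2 hpf and was listed at 0 in control B. The rows PSMB11 (1 of 2) and PSMB11 (2 of 2), named for a thymus form of mammals, peaked at 0.0476 FPKM and at 0.

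The activators split in the same manner. psme1 and psme2, the interferon-inducible pair of the PA28 activator, stayed at or below 1.8 and 0.339 FPKM. psme4a, 1 copy of the PA200 activator, was at most 0.571 FPKM, while psme4b made up 98.3% to 99.4% of the pair's FPKM in each group. psma6l was at most 0.28 FPKM. In all, 9 rows were under 1 FPKM in every group: psma6l, psmb8, psmb9a, psmb10 on chromosome 19, psmb11, both PSMB11 rows, psme2 and psme4a. They enter no count of changes below.

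With transcription blocked, most RNAs of the core particle were lower than in control B, 13 of 15 tested. Amanitin against control B asks which RNAs differ in level at 6 hpf when transcription is blocked. A gene lower here need not be lower than at 2 hpf. Against control 2 hpf 11 of the 15 were lower in amanitin, beside 44.1% of all genes tested, and psmb2 and psmb4 were not called. Of 49 proteasome genes tested in the authors' deposited table, 26 were lower in amanitin and 10 were higher, while 29.2% of all genes tested were lower and 41.6% higher. The median log2 ratio of the proteasome genes was -0.46, against 0.12 for all genes. The fall lay mainly in the rings: 7 of 8 alpha genes, 6 of 7 constitutive beta genes and 4 of 7 ATPases fell. Outside these 3 lists, 9 of 27 rows fell and 8 rose. Those that fell include PSMB10, an alternative beta row, and psmc3ip, which is not a proteasome gene.

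psmb6 (chromosome 23, 44652956 to 44662183) encodes the subunit with the caspase-like site. Its level was 40.0 FPKM with miR-430 MO, 34 with CNOT7-DN, 4.49 with amanitin, 54.3 in control B, 42.7 in control 6 hpf and 26.8 in control 2 hpf. Amanitin stood apart from the other 5 groups. The log2 ratio of amanitin over control B was -3.33, the lowest among the proteasome genes, with a q of 0.000105 in the authors' deposited table. That q is the lowest the table gives any proteasome gene in this comparison, and many other proteasome genes share it.

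psmb7 (chromosome 21, 7841683 to 7852005), with the trypsin-like site, had 127 FPKM with miR-430 MO, 145 with CNOT7-DN, 37.6 with amanitin, 164 in control B, 165 in control 6 hpf and 87.3 in control 2 hpf. Its log2 ratio was -2.10 (q 0.000105 in the authors' deposited table). The third catalytic subunit went the other way. psmb5, with the chymotrypsin-like site, had 97.4 FPKM with miR-430 MO, 75.1 with CNOT7-DN, 115 with amanitin, 84.5 in control B, 86.1 in control 6 hpf and 73.5 in control 2 hpf. It rose by a log2 ratio of 0.43 (q 0.00103 in the authors' deposited table), though its locus is shared with another row. Amanitin embryos thus had 115 FPKM of psmb5 beside 4.49 of psmb6, where control B embryos had 84.5 beside 54.3.

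Among the alpha genes, psma6b (chromosome 20, 16929024 to 16947087) fell furthest. It had 14 FPKM with miR-430 MO, 21.7 with CNOT7-DN, 1.88 with amanitin, 13.6 in control B, 21.7 in control 6 hpf and 12.3 in control 2 hpf, a log2 ratio of -2.34. psma4 had 60.9, 65.7, 17.7, 77.6, 75.9 and 66.7 FPKM in that order of groups, a log2 ratio of -2.07. psma1 had 23.6, 24.1, 8.49, 31.5, 27 and 47.4 FPKM in that order, a log2 ratio of -1.78, at a locus that 4 rows share. All of these falls had a q of 0.000105 in the authors' deposited table, and in each gene amanitin was the lowest group. psma6a was the alpha gene that was not called, at 70.1 FPKM in amanitin and 61.1 in control B.

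Of the 7 ATPases, 4 fell, 1 rose and 2 were not called, where 29.2% of all genes tested were lower and 41.6% higher. psmc1b, psmc5, psmc6 and psmc2 fell, with log2 ratios of -1.68, -1.46, -1.45 and -1.08 in amanitin over control B. Of these, psmc1b had 22.2 FPKM with miR-430 MO, 23.1 with CNOT7-DN, 9.43 with amanitin, 32.5 in control B, 26.8 in control 6 hpf and 19.1 in control 2 hpf. psmc3 rose by 0.33 (q 0.0143 in the authors' deposited table), though its log2 ratio was 0.11 with control 6 hpf as the reference. psmc4 had 356 FPKM in amanitin and 305 in control B, and psmc1a had 11.2 and 13.9 FPKM. Neither psmc4 nor psmc1a was called, though psmc1a was lower in amanitin than in control 2 hpf, with a log2 ratio of -1.30.

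In the rest of the regulatory particle 5 of 14 genes fell and 3 rose, against 29.2% and 41.6% of all genes tested. psmd4b, a copy of the ubiquitin receptor gene psmd4, had 28.1 FPKM with miR-430 MO, 29.4 with CNOT7-DN, 11.4 with amanitin, 33.7 in control B, 33.9 in control 6 hpf and 17.5 in control 2 hpf, a log2 ratio of -1.48. psmd12, psmd13, psmd11b and psmd6 fell too, with log2 ratios of -1.07, -0.95, -0.51 and -0.46. The genes that rose were psmd11a, psmd1 and psmd3. Of these, psmd3 had 26.9 FPKM in amanitin, 21.6 in control B and 26.2 in control 6 hpf, so its amanitin value was close to control 6 hpf. psmd11a, a lid subunit gene, had 107 FPKM with miR-430 MO, 93.6 with CNOT7-DN, 149 with amanitin, 75.8 in control B, 86.9 in control 6 hpf and 112 in control 2 hpf, a log2 ratio of 0.97. psmd14, the deubiquitinase of the lid, was not called at 60.0 FPKM in amanitin and 63.3 in control B.

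Of the 4 activator and inhibitor genes tested, 3 rose, against 41.6% of all genes tested. psme4b, the activator PA200, had 38.2 FPKM with miR-430 MO, 23 with CNOT7-DN, 66.8 with amanitin, 27.4 in control B, 26.3 in control 6 hpf and 32.4 in control 2 hpf. Its log2 ratio of 1.25 was the highest of all proteasome genes. psmf1, the inhibitor PI31, followed with 12, 8.68, 14.5, 6.32, 7.46 and 20.1 FPKM in that order of groups, a log2 ratio of 1.08. psme3 rose by 0.79, and psme1, at 1.01 FPKM in amanitin and 1.8 in control B, was not called.

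Of the base chaperones, psmd10 and psmd5 rose, with log2 ratios of 0.93 and 0.92, and psmd9 fell, with one of -1.11. psmd10 had 14.1 FPKM with miR-430 MO, 20.2 with CNOT7-DN, 20.5 with amanitin, 10.3 in control B, 15.3 in control 6 hpf and 72.7 in control 2 hpf. Its 6 hpf control groups differed, so that its amanitin value stood closer to control 6 hpf than to control B. Of all genes tested 29.2% were lower and 41.6% higher in amanitin. Near the former share, 1 of the 4 core chaperones fell. This was psmg3 (chromosome 3, 43695432 to 43696649), at 13.9 FPKM with miR-430 MO, 17 with CNOT7-DN, 1.26 with amanitin, 13.1 in control B, 10.7 in control 6 hpf and 8.14 in control 2 hpf, a log2 ratio of -2.64. The other core chaperones, psmg1, psmg2 and PSMG4, were not called. On the log2 (FPKM + 1) scale, just past 2-fold were psmf1 upward and psma3, psmd12, psmc2, psmd9 and psmc3ip downward, and just short of it psmd11a, psmd10 and psmd5 upward and psmd13 and psma8 downward.

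**Figure D2:**
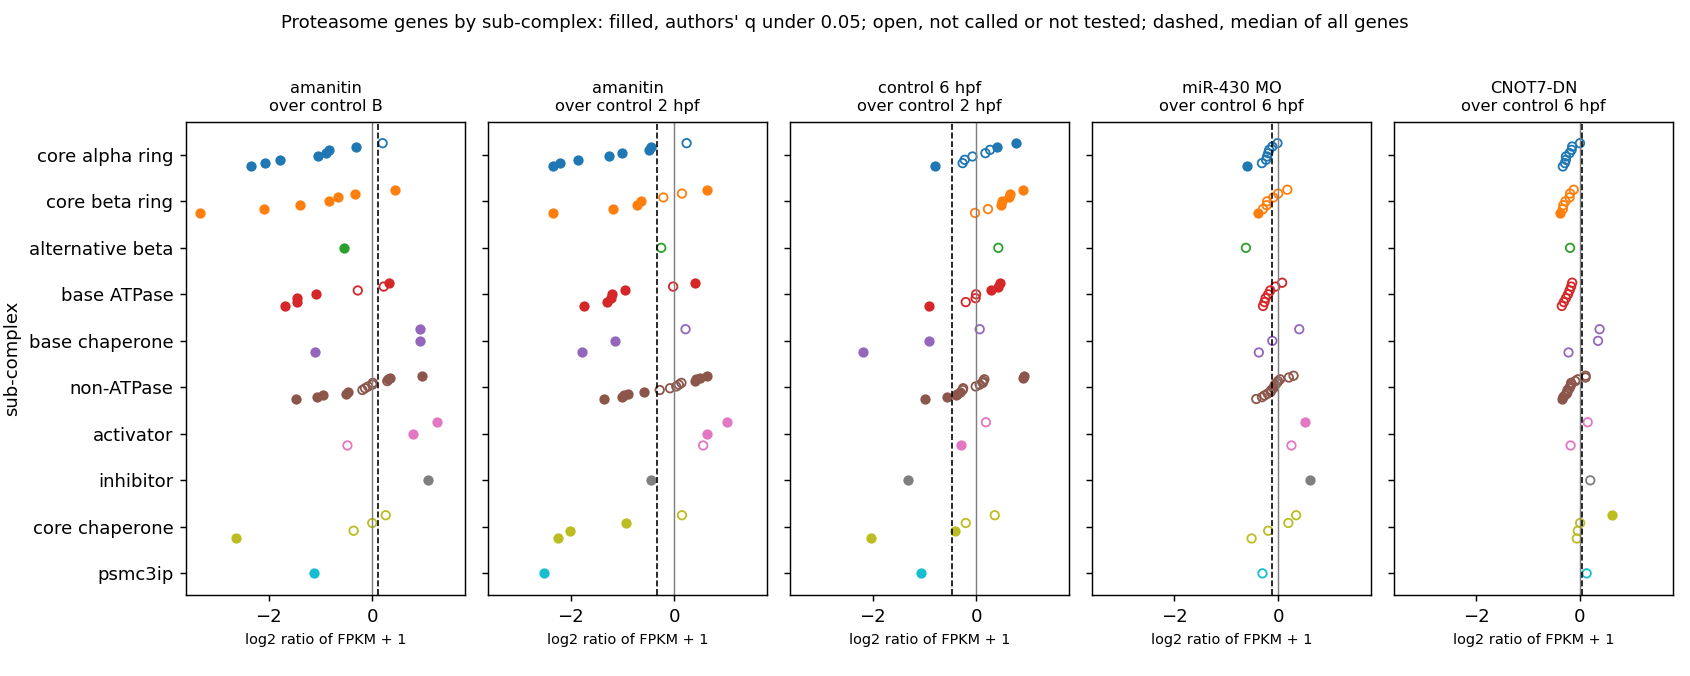
Log2 ratio of (FPKM + 1) in the 5 deposited comparisons, 1 point per gene that reached an FPKM of 1, by sub-complex (height within a row only separates points); filled points have the authors' q under 0.05, open ones are not called or not tested, and the dashed line is the median of all genes. In amanitin over control B the rings reach down to -3.33 for psmb6, and the activators up to 1.25 for psme4b.

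Taking control 6 hpf as the reference for amanitin instead, with no test, all 36 genes called in amanitin kept their direction. Both ratios use the same amanitin values, so a kept direction or size is not independent support. The share of all genes that kept theirs was not taken. The rises of psmd3 and psmc3 then shrank to 0.04 and 0.11. Of the 18 genes at least 2-fold apart, 15 stayed so. Of those 18, 2 were higher and 16 lower in amanitin, against 20.5% and 28.7% of genes in the whole table. The 6 hpf control groups were themselves close. Their log2 ratios, control B over control 6 hpf, ran from -0.63 for psma6b to 0.53 for psme1 with a median of -0.01, and no proteasome gene reached 2-fold, against 2.34% of all genes higher and 1.57% lower by that rule. The median of the ring genes was -0.90 as deposited, -0.55 with all groups scaled to equal sums of FPKM, -1.03 centred on the median gene and 0.19, with its sign changed, centred on the median ribosomal protein gene. The log2 ratio of that ribosomal gene was -1.09, so the rings were lower than most genes and about as low as ribosomal proteins. The median of the 3 activators was positive under each scaling, from 0.67 to 1.88. As deposited it is the value of psme3, with psme1 at -0.48 and psme4b at 1.25. With control 6 hpf as the reference, psme3 was at 0.44.

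Levels within the rings were most unequal under amanitin. Over the 14 ring positions the highest level was 27.5-fold the lowest in amanitin, psmb4 at 124 FPKM over psmb6 at 4.49. It was 6.79-fold in miR-430 MO, 6.07-fold in CNOT7-DN, 5.21-fold in control B, 6.09-fold in control 6 hpf and 5.34-fold in control 2 hpf. The SD of log2 FPKM over the 14 positions was 1.33 in amanitin and between 0.64 and 0.73 in the other groups. Subunits that sit at equal numbers in the particle were thus most unequal in RNA where transcription was blocked. The 6 ATPase positions showed the same order, 17.5-fold in amanitin against 6.94-fold in control B, with psmc4 highest in every group. These are spans over genes of 1 pooled value each and carry no test.

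**Figure D3:**
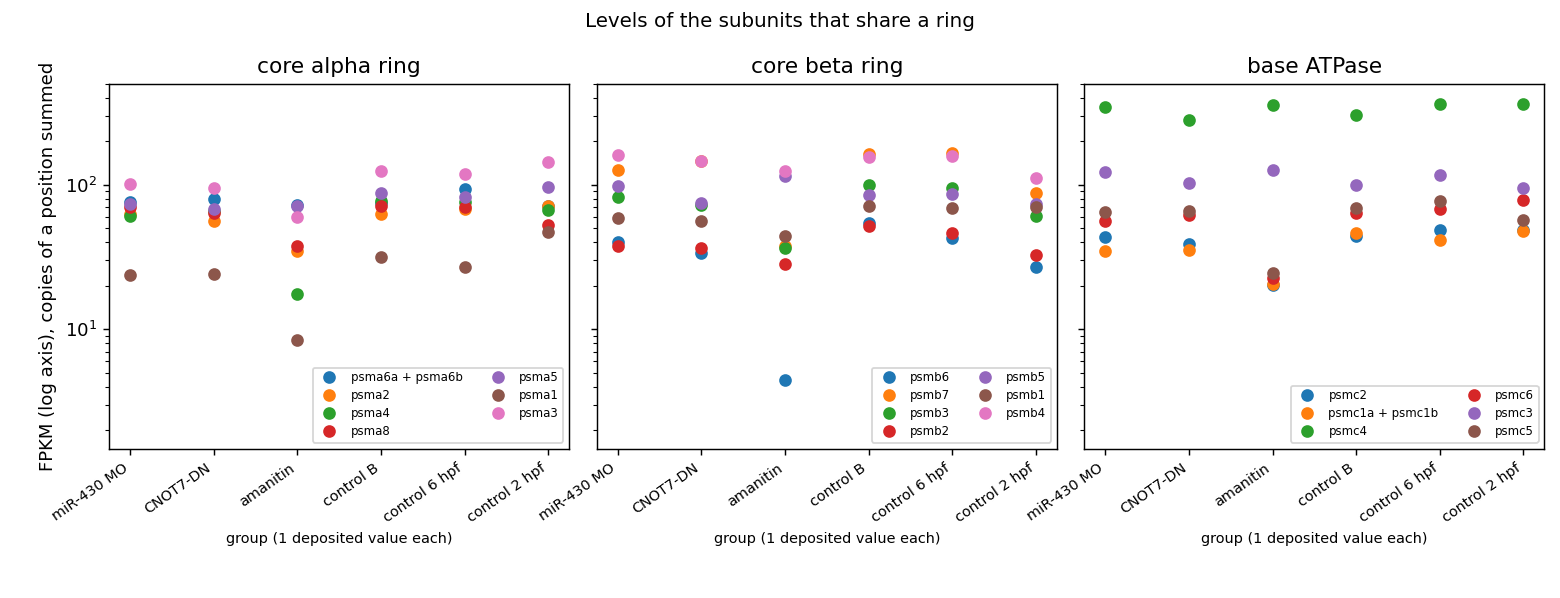
FPKM (log axis) in each group for the positions of the alpha ring, the beta ring and the ATPase ring, 1 point per position, with the copies of psma6 and of psmc1 summed. The points spread furthest in amanitin, where psmb6 is at 4.49 FPKM and psma1 at 8.49, while psmc4 stays on top of its ring in every group.

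Amanitin embryos were also set against control 2 hpf, which asks which RNAs of the egg have fallen by 6 hpf when little is made anew. This comparison shares the amanitin values with the one above. Of 47 proteasome genes tested in the authors' deposited table, 28 were lower in amanitin and 8 higher, against 44.1% and 22.2% of all genes tested. The median was -0.58, and that of all genes -0.34. Falls covered 7 of 8 alpha genes, 4 of 7 beta genes and 5 of 7 ATPases.

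The gene that fell furthest here was psmc3ip, the row that is not a proteasome gene, at 18.8 FPKM with miR-430 MO, 25.8 with CNOT7-DN, 7.97 with amanitin, 18.6 in control B, 23.5 in control 6 hpf and 50.5 in control 2 hpf (log2 ratio -2.52). psma1, psmb6, psmg2, psma6b, psmg3 and psma4 followed at -2.35, -2.34, -2.24, -2.21, -2.02 and -1.86, and psmd10 came next at -1.78. The 8 genes that rose were led by psme4b at 1.02, with psmb5, psme3 and PSMD2 (2 of 2) at 0.63 each, psmd2 at 0.50, psmd11b at 0.42, psmd11a at 0.41 and psmc3 at 0.40. At least 2-fold, 1 gene was higher and 18 were lower in amanitin, against 5.5% and 28.3% of all genes. psmb5, psme3 and psmc3 share their locus with another row. psmd2 had 30.4, 24.9, 42.5, 42.5, 29.5 and 29.7 FPKM in the order miR-430 MO, CNOT7-DN, amanitin, control B, control 6 hpf and control 2 hpf, and PSMD2 (2 of 2) had 36.9, 32.6, 52.5, 52, 36.9 and 33.5. For both rows control B was as high as amanitin. psmc3 had 123, 103, 126, 100.2, 117 and 95.2 FPKM in that order. psmb4 and psmc4 were not called, at 124 FPKM in amanitin and 112 in control 2 hpf for psmb4, and at 356 and 360.4 FPKM for psmc4.

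From 2 to 6 hpf in control embryos most RNAs of the beta ring rose. Of 48 proteasome genes tested in the authors' deposited table, 12 were higher in control 6 hpf and 14 lower, against 20.8% and 51.7% of all genes tested. The median log2 ratio was -0.0036, that of all genes -0.47. In the beta ring 5 of 7 genes rose and none fell: psmb7 by 0.91, psmb6 by 0.65, psmb3 by 0.63, psmb4 by 0.51 and psmb2 by 0.49. The beta ring's median was 0.51 as deposited, 0.98 centred on the median gene, 0.00 with equal sums and -0.44 centred on the median ribosomal protein gene. None of the 12 rises reached 2-fold. psmb1 and psmb5, which were not called, stood at -0.02 and 0.23. Centred on the median gene, the median of the proteasome genes becomes 0.46, and relative to the median ribosomal protein gene it becomes -0.95, so their direction as a set depends on the scale.

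The other rises were in single copies or single subunits. psmd11b had 24 FPKM with miR-430 MO, 22.9 with CNOT7-DN, 18.4 with amanitin, 26.6 in control B, 26.3 in control 6 hpf and 13.5 in control 2 hpf, a log2 ratio of 0.92 for control 6 hpf over control 2 hpf. psmd4b rose by 0.91, psma6b by 0.77, psmc1b by 0.47, psmc5 by 0.42, psma8 by 0.40 and psmc3 by 0.29. In control B psma6b, at 13.6 FPKM, and psmc3, at 100.2, were close to control 2 hpf, at 12.3 and 95.2. The rises of psma6b and psmc3 thus depend on which 6 hpf control is used. For psmd4b, psmc1b, psmc5 and psma8 control B stood further above control 2 hpf in proportion, least so for psmc5, at 68.8 and 57.2 FPKM. With equal sums of FPKM the beta ring's median went from 0.51 to 0.00. The smaller rises of psmc1b, psmc5, psma8 and psmc3 thus depend on the scaling too. psmb3, a structural beta subunit, had 82.2 FPKM with miR-430 MO, 72.6 with CNOT7-DN, 36.7 with amanitin, 98.9 in control B, 95.4 in control 6 hpf and 61.3 in control 2 hpf. psmb4, also structural, had 159.8, 147, 124, 156, 159 and 112 FPKM in that order of groups, and psmb2, structural as well, had 37.9, 36.7, 28.3, 51.6, 46.5 and 32.8 FPKM.

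The largest falls were those of the chaperone genes psmd10 and psmg2, though the share of chaperones that fell, 4 of 7, was near that of all genes (51.7%). psmd10, known in mammals as gankyrin and a chaperone of the base, fell to 15.3 FPKM in control 6 hpf, against 72.7 in control 2 hpf, a log2 ratio of -2.18. psmg2, a chaperone of the alpha ring, had 5.53 FPKM with miR-430 MO, 7.88 with CNOT7-DN, 7 with amanitin, 7 in control B, 8.28 in control 6 hpf and 36.9 in control 2 hpf, a log2 ratio of -2.03. All 5 groups at 6 hpf were far below 2 hpf, amanitin included. psmf1 and psmc3ip fell with log2 ratios of -1.32 and -1.07. These 4 genes were past 2-fold, all lower in control 6 hpf, against 29.9% of all genes at least 2-fold lower and 18.6% higher. The q of each was 0.000378 or less in the authors' deposited table.

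psmd5, another base chaperone, had 6.91 FPKM with miR-430 MO, 6.6 with CNOT7-DN, 12.1 with amanitin, 5.92 in control B, 4.95 in control 6 hpf and 10.2 in control 2 hpf. Its log2 ratio from 2 to 6 hpf was -0.91. psmd4a had 12.4, 13.4, 12.9, 14.9, 16.9 and 34.3 FPKM in that order of groups, a log2 ratio of -0.98, and psmc1a, at 12.9, 12.2, 11.2, 13.9, 14.9 and 29 FPKM, one of -0.91. In both, amanitin was close to the other 6 hpf groups and 2 hpf stood above all of them. Smaller falls were those of psma1, psmd14, psmg1, psmd1, psmd11a, psmd3 and psme4b, with log2 ratios of -0.79, -0.57, -0.40, -0.39, -0.36, -0.32 and -0.29. On the log2 (FPKM + 1) scale, just short of 2-fold were psmd4a, psmd11b, psmd4b, psmb7, psmc1a and psmd5, and just past it psmc3ip.

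In some pairs of duplicated genes the balance of the copies differed between groups. The b copy of psmd4 made up 69.4% of the pair's FPKM with miR-430 MO, 68.7% with CNOT7-DN, 47% with amanitin, 69.4% in control B, 66.7% in control 6 hpf and 33.8% in control 2 hpf. Their sum was alike in control embryos, 48.6 FPKM in control B, 50.8 in control 6 hpf and 51.8 in control 2 hpf, and was 24.3 in amanitin. The b copy of psmc1 made up 63.2%, 65.5%, 45.7%, 70.1%, 64.2% and 39.8% in that order of groups. In both pairs b was the larger copy in 6 hpf embryos without amanitin and the smaller at 2 hpf and in amanitin. The locus of psmc1a is shared with another row, so its part in the pair is less certain.

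In the pairs psmd11 and psma6 a was the larger copy throughout, and in psme4 b was. The b copy of psmd11 made up 18.4% with miR-430 MO, 19.7% with CNOT7-DN, 11% with amanitin, 25.9% in control B, 23.2% in control 6 hpf and 10.8% in control 2 hpf. That of psma6 made up 18.4%, 27.1%, 2.6%, 18.2%, 23.3% and 17.2% in that order. psma6b was thus almost lost in amanitin while psma6a stood at 70.1 FPKM. The sum of the pair was 72 FPKM in amanitin, 74.6 in control B and 93.1 in control 6 hpf. In amanitin over control B 4 of these b copies fell, with log2 ratios of -2.34 for psma6b, -1.68 for psmc1b, -1.48 for psmd4b and -0.51 for psmd11b, while psme4b rose by 1.25. Of all genes tested in that comparison, 29.2% were lower and 41.6% higher. Of the a copies psmd11a rose, and psma6a, psmc1a and psmd4a were not called, with log2 ratios of 0.20, -0.28 and -0.19. psme4a was under 1 FPKM in every group. Copies are alike in sequence, and how the authors' counting divided shared reads is not given in the sources used here.

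**Figure D4:**
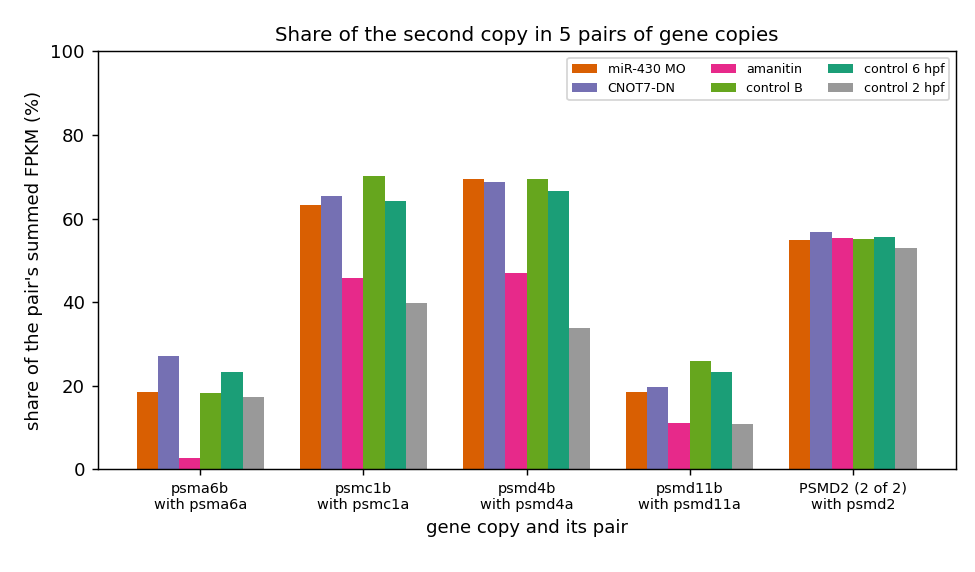
Share of the second copy (percent, bars from 0) in the summed FPKM of 5 pairs of gene copies, with 1 bar per group. For psmc1b and psmd4b the bars are above 60% in the 6 hpf groups other than amanitin and below 50% in amanitin and in control 2 hpf, and those of PSMD2 (2 of 2) lie between 53% and 56.7%.

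Change over time and change under amanitin were then set side by side, gene by gene, in comparisons that share no group. Over the 48 genes with values in both, the log2 ratios of control 6 hpf over control 2 hpf and of amanitin over control B had a Pearson r of -0.49 and a Spearman rho of -0.49. Over 15442 genes of the whole table they were -0.81 and -0.66. These are descriptions across genes of the same libraries, which are not independent points. By sign, 18 of the 48 were higher at 6 hpf and lower in amanitin, 11 were lower at 6 hpf and higher in amanitin, 14 were lower in both and 5 higher in both. In the same order, the counts over the 15442 genes of the whole table were 4639, 7404, 2432 and 967. psma1, psmc6 and psma3 are examples of genes whose amanitin value was under that of either stage: psma3 had 102 FPKM with miR-430 MO, 94.7 with CNOT7-DN, 59.6 with amanitin, 125 in control B, 119.6 in control 6 hpf and 143 in control 2 hpf. Amanitin was the lowest of the 6 groups for 26 of the 49 genes (53.1%), against 30.3% of all genes at an FPKM of at least 1.

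**Figure D5:**
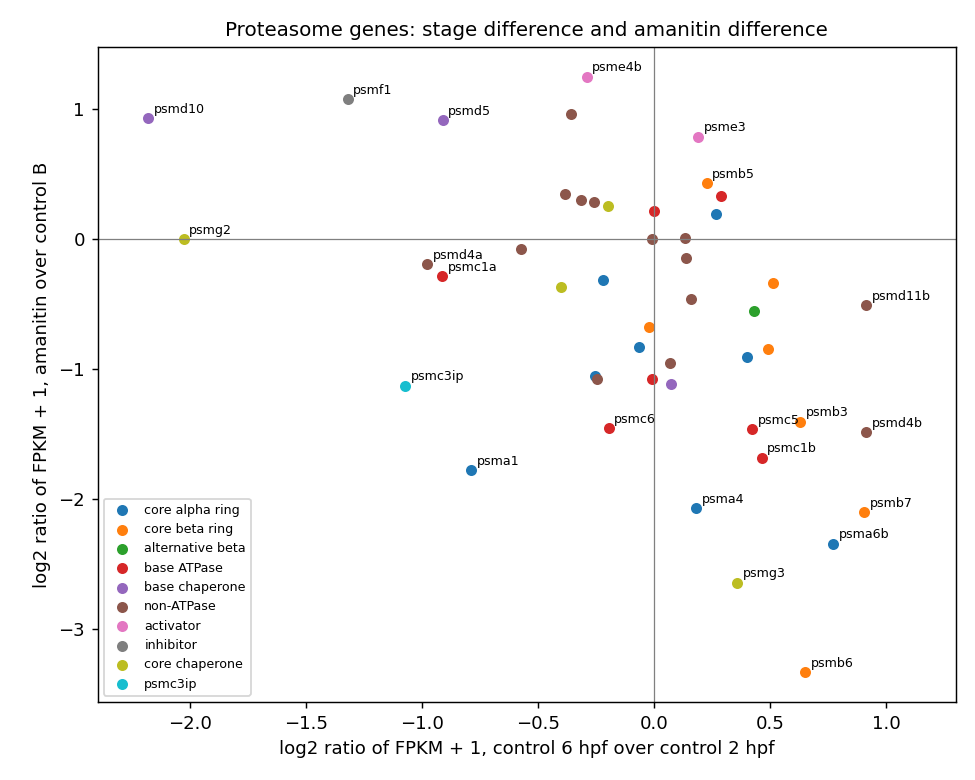
Log2 ratio of (FPKM + 1) of control 6 hpf over control 2 hpf (horizontal) against that of amanitin over control B (vertical) for 48 genes, 1 point each, coloured by sub-complex. psmb6, psmb7, psmd4b and psma6b lie at lower right, psmf1 and psmd10 at upper left, and psma1 and psmc3ip at lower left.

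Blocking miR-430, the microRNA family that clears many maternal RNAs, left most proteasome genes uncalled. Of 48 tested in the authors' deposited table, 2 were higher in miR-430 MO and 2 lower, against 9.41% and 16.1% of all genes tested. The median was -0.14, and that of all genes -0.12. psmf1 rose to 12 FPKM in miR-430 MO, against 7.46 in control 6 hpf, with 6.32 in control B and a log2 ratio of 0.62 (q 0.00762 in the authors' deposited table). psme4b rose to 38.2 FPKM in miR-430 MO, against 26.3 in control 6 hpf, with 27.4 in control B and a log2 ratio of 0.52 (q 0.00152 in the authors' deposited table). For both genes the miR-430 MO value was above both 6 hpf control groups.

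psma6b and psmb7 fell. psma6b had 14 FPKM in miR-430 MO and 21.7 in control 6 hpf, a log2 ratio of -0.60 (q 0.0165 in the authors' deposited table). Control B, at 13.6 FPKM, was as low as miR-430 MO, so that this fall is within the difference between the 6 hpf control groups. psmb7 had 127 FPKM in miR-430 MO and 165 in control 6 hpf, a log2 ratio of -0.38 (q 0.0339 in the authors' deposited table), with 164 in control B. Among those not called, psmd10, psmg2 and psmd4a, which fell from 2 to 6 hpf, had log2 ratios of -0.11, -0.51 and -0.42.

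CNOT7 is a deadenylase of the CCR4-NOT complex, which shortens the tails of RNAs marked for decay. CNOT7-DN embryos are compared with the same control 6 hpf values as miR-430 MO. Of 48 proteasome genes tested in the authors' deposited table, 1 was higher in CNOT7-DN and 2 lower, against 10.1% and 4% of all genes tested. The median was -0.19, that of all genes 0.04 and that of ribosomal protein rows -0.18, and centred on ribosomal protein genes the median was -0.02. Ratios were below 0 for 38 of the 48 proteasome genes, for 81 of 81 ribosomal protein rows and for 7093 of 15626 genes in all. psmg3 rose to 17 FPKM with CNOT7-DN, against 10.7 in control 6 hpf, with 13.1 in control B and a log2 ratio of 0.62 (q 0.0267 in the authors' deposited table). psmb3 fell by 0.39, at 72.6 FPKM in CNOT7-DN and 95.4 in control 6 hpf (q 0.0359 in the authors' deposited table). psmd1, the largest subunit of the base, had 54.8 FPKM with miR-430 MO, 37 with CNOT7-DN, 68.2 with amanitin, 53.3 in control B, 47.1 in control 6 hpf and 61.8 in control 2 hpf, a log2 ratio of -0.34 in CNOT7-DN (q 0.0461 in the authors' deposited table). No proteasome gene was 2-fold apart from control 6 hpf in either injection. By that measure 2.66% of all genes were higher and 2.26% lower in miR-430 MO, and 1.51% and 1.26% in CNOT7-DN.

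Genes that work with the proteasome were taken from a list of 54 symbols: ubiquitin genes, ubiquitin-activating enzymes, shuttle factors, subunits named otherwise, assembly and regulatory factors named otherwise, p97 and its partners, and transcription factors of proteasome genes in mammals. The last class also holds nrf1, which is nuclear respiratory factor, and ngly1, which is not a transcription factor. Of the 54 symbols, 40 had a row, on 42 rows. In amanitin over control B, the authors' deposited table has 11 of 39 tested genes higher and 15 lower, against 41.6% and 29.2% of all genes tested, with a median of -0.07. In amanitin over control 2 hpf 14 of 37 rose and 12 fell, against 22.2% and 44.1% of all genes. From 2 to 6 hpf 18 of 39 rose and 13 fell, against 20.8% and 51.7%, with a median of 0.20. In miR-430 MO 4 of 38 rose and 4 fell, against 9.41% and 16.1%, so both shares were near or under those of all genes. In CNOT7-DN 2 of 38 rose and none fell, against 10.1% and 4%.

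nfya, a subunit of the transcription factor NF-Y, had 192 FPKM with miR-430 MO, 144 with CNOT7-DN, 18.2 with amanitin, 185 in control B, 161 in control 6 hpf and 14.9 in control 2 hpf. Its log2 ratios were -3.28 in amanitin over control B and 3.34 in control 6 hpf over control 2 hpf, so its low values were those in amanitin and at 2 hpf. zfand5a was also among the falls in amanitin over control B, at -2.27. The rises there were led by UBA6 and ube3c, a ubiquitin-activating enzyme and a ubiquitin ligase, and by nrf1, nuclear respiratory factor, at 1.79, 1.60 and 1.58.

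ube3c had 52.7 FPKM with miR-430 MO, 32.1 with CNOT7-DN, 69.9 with amanitin, 22.3 in control B, 25.2 in control 6 hpf and 67.7 in control 2 hpf. It rose by 1.04 in miR-430 MO and by 0.34 in CNOT7-DN, and fell by 1.39 in control 6 hpf against control 2 hpf. UBA6 rose by 0.83 and uba1, which encodes the main ubiquitin-activating enzyme, by 0.79 in miR-430 MO. Falls there were led by zfand2a, nfe2l1a and zfand5b at -0.53, -0.52 and -0.43. From 2 to 6 hpf nfe2l1a, a factor that drives proteasome genes in mammals, rose by 1.71 and stood at 3.17 FPKM in control 6 hpf. zfand2a and UBA6 fell over that time, with log2 ratios of -1.85 and -1.29.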

How the data were processed

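RNA of pooled whole embryos was sequenced in 6 groups. The submitters' processing notes name TopHat 1.4.0, Cuffdiff 2.1.1 and the Zv9 (danRer7) build. The deposited table gives the FPKM of both groups in each of 5 comparisons, with the authors' p-value, q-value and test status, per the file headers. Neither the scaling of libraries nor the use of strand is stated in the sources used here. Triplicates are stated for the series, though not whether they came from separate clutches. The spread behind the deposited q-values may therefore be technical. Depth per sample is unknown.

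Members were taken by symbol from the deposited table, and ring positions, roles, copies and the pathway list were set by hand. Members and lists were chosen with earlier results of these data known. Log2 ratios used a pseudocount of 1 and rows whose higher FPKM was at least 1. Calls are the authors' q under 0.05 over all genes they tested, and no p-value was computed here. In each comparison up to 8 called members each way were named with the values of all groups, besides paralogs, near-silent members, members within 10% of 2-fold, and up to 3 pathway genes each way. A pathway gene that this rule would name is not reported here. Names were matched to a RefSeq gene list (49 of 58 IDs were found in the name list), and loci are those of the table, whose start base was not checked. Sequences are not shown. Python 3.11.15 with numpy 2.4.6, pandas 2.3.3, scipy 1.17.1 and matplotlib 3.10.9 was used, and the scripts were tested on simulated data. Other settings tried were an FPKM minimum of 5 or none, pseudocounts of 0.1 and 5, 3 scalings, a q under 0.01, a 2-fold minimum, rows with a locus of their own, and the other 6 hpf control.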

Additional observations from a re-analysis of the deposited data

How the results depend on the processing

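Results were recomputed under other pseudocounts, FPKM minimums, scalings, thresholds, row sets and, for amanitin, control 6 hpf in place of control B; leaving out psmc3ip was added after seeing the data. Of 86 recomputed values, 72 stayed within the limits given below, 12 moved past them and 2 moved past them with a change of sign. Sign was not checked within the limits. The median for control B over control 6 hpf, -0.0086 as reported, was 0.09 with equal sums of FPKM and 0.04 centred on the median gene. A median counts as moved past 0.25, the SD of the genes' log2 ratios between the 6 hpf control groups, and a count past 1.5 times. The median for control 6 hpf over control 2 hpf was -0.50 with equal sums of FPKM, 0.46 centred on the median gene (sign changed) and -0.95 centred on ribosomal protein genes. For amanitin over control B it was -0.10 with equal sums and 0.63 centred on ribosomal protein genes (sign changed). For amanitin over control 2 hpf it was -0.26 with no FPKM minimum and -0.24 centred on the median gene. By construction a centring shifts every gene alike, and equal sums multiply every FPKM of a group by the same factor. With no FPKM minimum the median for amanitin over control 2 hpf is taken over 58 rows instead of 49. Beyond this the cause of the moves was not tested. Requiring 2-fold beside q under 0.05, the genes called numbered 18 for amanitin over control B (2 higher, 16 lower), 19 for amanitin over control 2 hpf (1 higher, 18 lower), 4 for control 6 hpf over control 2 hpf (all lower), 0 for miR-430 MO and 0 for CNOT7-DN. At q under 0.01 they numbered 2 for miR-430 MO and 0 for CNOT7-DN. No paired analysis was possible because the columns hold 1 value per group and carry no replicate number, and for the same reason no replicate could be left out. The depth behind each value is unknown, so no limit of detection was set for rows at or near 0.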

Other observations

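The rule by symbol left out 3 rows of the table whose gene ID the name list gives a proteasome-related symbol. The row si:rp71-45k5.4, listed as PSMA2 and in RefSeq as psma2b, is a second gene for an alpha ring subunit beside psma2. It had 73.5 FPKM with miR-430 MO, 75.7 with CNOT7-DN, 28.6 with amanitin, 81.2 in control B, 87.3 in control 6 hpf and 99.6 in control 2 hpf. Amanitin was its lowest group, as for psma2 at 35 FPKM, and it is not in the sums by ring position. The row fam192a, listed as PSME3IP1 and named for binding the activator psme3, stood at 19.5, 22.5, 26, 27.9, 24.6 and 27.7 FPKM in that order of groups. The row BX663524.2, listed as PSME4, was at 0 in every group.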
